A study of Mus musculus with 2 samples.

Results

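Of 2204 H3K9bhb peaks called in memory-like CD8+ T cells, 283 had a summit inside a protein-coding gene and more than 2 kb from every protein-coding gene end, a share of 12.8% (exact 95% interval 11.5 to 14.3%). Members were chosen by position alone, with 1 summit per peak (the lowest coordinate where a peak listed several), against the RefSeq gene spans of mm10 (GRCm38.p6). Another 1808 peaks lay within 2 kb of a protein-coding gene end, 104 lay farther out than that and outside such genes, and 9 were mitochondrial. The 283 summits fell in 270 different host genes, and 3 of them lay where 2 genes overlap (Filip1l with Cmss1, Mef2b with Gm45929, and Btbd6 with Brf1, the last 2 pairs named for that reason after their values were seen).

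The study profiled H3K9bhb, β-hydroxybutyrylated lysine 9 of histone H3, by chromatin immunoprecipitation and sequencing (ChIP-seq). Splenocytes of OT-I mice (C57BL/6), whose transgenic T cell receptor recognises an ovalbumin peptide, were activated with that peptide (200 ng/ml) and IL-2 (10 ng/ml) for 3 days, then kept in IL-15 (10 ng/ml) for 4 days, and were treated with β-hydroxybutyrate (BHB) for 3 days. There was 1 ChIP library, made with 4 µg of antibody, and 1 input library from cells given the same treatment, each labelled as 70 M reads, sequenced as pairs of 150 bp. Cells without BHB were not analysed here. A peak therefore shows where the mark was enriched with BHB present, and says nothing of a change caused by it. With 1 library there is no replicate spread and no test, and the intervals given for shares and densities are exact ones that cover counting error only. The cells are a culture model of memory, programmed by cytokine from bulk splenocytes, and the labels do not say how many mice they came from. None of 11 CD8 T cell marker genes, Cd3e, Cd8a and Lck among them, held an intragenic summit or a peak at a gene end, and neither did any of 13 markers of other spleen cells long enough to hold one, so the peak list gives no marker evidence on the cells' identity.

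BHB is the main circulating ketone body, made by the liver in fasting, and it can be attached to histone lysines in the way acetate is. H3K9bhb is known from starved liver, where it gathers at promoters of active genes. A protein-coding gene can carry several promoters, and one that lies inside the span of the longest transcript gives shorter RNAs or proteins with another amino end. Many mammalian promoters are CpG islands, stretches where CpG, elsewhere depleted through methylation and mutation, has kept close to the frequency that base composition predicts. The gene span in the annotation runs from the outermost start to the outermost end, so an internal promoter counts as gene interior.

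Several members lay at such internal promoters, and the sequences of 6 of them are shown with 3 starts of the same genes that had no summit. Each is the 150 bases from 130 before to 20 from the listed transcript start onward, 5′ to 3′ on the gene's strand, from the RefSeq promoter table of GRCm38.p6, with every CpG in capitals. Runx1 encodes a transcription factor needed for blood cell and T cell development, and its internal start (chr16:92697310-92697459, minus strand) had a summit 121 bp upstream, whereas its outermost start (chr16:92826055-92826204) had none. The CpG count of the printed bases was 11 against 2.
Runx1 internal start, summit: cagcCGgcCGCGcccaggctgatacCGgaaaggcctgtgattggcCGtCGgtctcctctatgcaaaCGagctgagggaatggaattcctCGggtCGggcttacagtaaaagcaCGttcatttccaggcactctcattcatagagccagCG
Runx1 outer start, no summit: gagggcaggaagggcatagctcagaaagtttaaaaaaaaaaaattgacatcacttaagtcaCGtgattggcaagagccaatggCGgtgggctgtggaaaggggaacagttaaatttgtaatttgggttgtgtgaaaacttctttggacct
Dnmt1 encodes the maintenance DNA methyltransferase, known to use separate promoters in oocytes and in somatic cells. Its internal start (chr9:20952604-20952753, minus strand) had a summit 33 bp upstream and 15 CpGs in the printed bases, and the outer start (chr9:20959869-20960018) had no summit and 1 CpG.
Dnmt1 internal start, summit: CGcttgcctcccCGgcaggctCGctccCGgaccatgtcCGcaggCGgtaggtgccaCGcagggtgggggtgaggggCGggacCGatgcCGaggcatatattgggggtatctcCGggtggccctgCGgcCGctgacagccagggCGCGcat
Dnmt1 outer start, no summit: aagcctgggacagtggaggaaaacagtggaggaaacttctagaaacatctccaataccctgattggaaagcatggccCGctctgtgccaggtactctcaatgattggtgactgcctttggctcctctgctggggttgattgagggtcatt
Dido1, a chromatin-binding protein gene, gives a contrast between 2 internal starts: the one with a summit 323 bp downstream (chr2:180702083-180702232, minus strand) had 14 CpGs, and the one without a summit (chr2:180692029-180692178) had 1. Its outer start, not shown, was CpG-rich and had no summit either.
Dido1 internal start, summit: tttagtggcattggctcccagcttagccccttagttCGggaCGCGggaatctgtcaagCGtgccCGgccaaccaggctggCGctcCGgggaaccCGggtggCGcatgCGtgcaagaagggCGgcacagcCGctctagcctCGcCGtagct
Dido1 second internal start, no summit: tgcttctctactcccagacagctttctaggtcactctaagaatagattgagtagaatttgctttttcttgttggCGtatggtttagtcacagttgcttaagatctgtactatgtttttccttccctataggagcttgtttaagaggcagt
Sesn1 and Cep70 show CpG-dense internal starts with the summit almost on the start, at 40 bp upstream and 34 bp downstream respectively. Sesn1 (chr10:41887309-41887458, plus strand) encodes a stress-induced sestrin that restrains mTOR signalling, and Cep70 (chr9:99243211-99243360, plus strand) a centrosomal protein.
Sesn1 internal start, summit: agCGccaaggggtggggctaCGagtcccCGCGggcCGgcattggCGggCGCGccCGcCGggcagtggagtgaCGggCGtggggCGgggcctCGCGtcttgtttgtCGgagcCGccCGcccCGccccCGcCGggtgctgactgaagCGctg
Cep70 internal start, summit: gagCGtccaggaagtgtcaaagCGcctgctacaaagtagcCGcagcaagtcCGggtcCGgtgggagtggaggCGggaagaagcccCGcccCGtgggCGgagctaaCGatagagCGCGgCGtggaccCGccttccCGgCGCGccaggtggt
Gramd1a, a sterol transfer protein gene, is shown as the exception. Its internal start (chr7:31151152-31151301, minus strand) had a summit 245 bp downstream with the lowest CpG ratio of any start at a member, 0.399 over the 300-base window.
Gramd1a internal start, summit: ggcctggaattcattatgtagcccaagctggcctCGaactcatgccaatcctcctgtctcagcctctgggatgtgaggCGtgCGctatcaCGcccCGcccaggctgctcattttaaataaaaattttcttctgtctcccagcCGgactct

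Close to 1 in 2 members lay at a transcript start that RefSeq lists. The table used for this holds 32851 starts, 21262 of them from 17491 protein-coding genes and 11588 from long non-coding RNA (lncRNA) genes, and none on chromosome 18, where 10 members lay. Of the other 273 members, 133 (48.7%, interval 42.6 to 54.8%) had a listed start within 500 bp, the distance used below for a summit "at" a start, and 49 (17.9%) had one within 100 bp. Widening the distance to 2000 bp added 28 more. The host gene had a start in the table for 229 of the 273, and among the 140 members farther than 500 bp from a start 40 had a host with none. The nearest start to those 140 was a median of 9082.5 bp away. Counting only the nearest start of each of the 133, it was one of the host gene itself for 120 (90.2%) and an lncRNA gene's for 13. It was that of another protein-coding gene for 0. Some of the 13 had a protein-coding start within 500 bp as well. With protein-coding starts only, 45.1% of the 273 had a start that near. For 46 of the 120 (38.3%) that start was the only one listed for the host, while 57 had hosts with a listed start farther upstream. The gene spans and the start table therefore differ for some hosts: 60.5% of the genes in the start table have a listed start at the very 5′ end of their span.

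Peaks at gene ends lay at listed starts more often, in 1276 of 1766 cases (72.3%, 70.1 to 74.3%), and peaks outside genes less often, in 13 of 100 (13%, 7.11 to 21.2%). The classes partly fix these shares. Gene-end zones take in the outermost starts, and peaks outside genes are over 2 kb from every protein-coding gene, which leaves mainly lncRNA starts. The placement around the start was nearly the same inside genes as at their ends. Members at starts had their summit a median of 100 bp downstream (quartiles 16 bp upstream and 225 bp downstream), with 97 of 133 (72.9%) on the downstream side. Gene-end peaks at starts had a median of 109.5 bp downstream, with 932 of 1276 (73.0%) on that side.

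**Figure D1:**
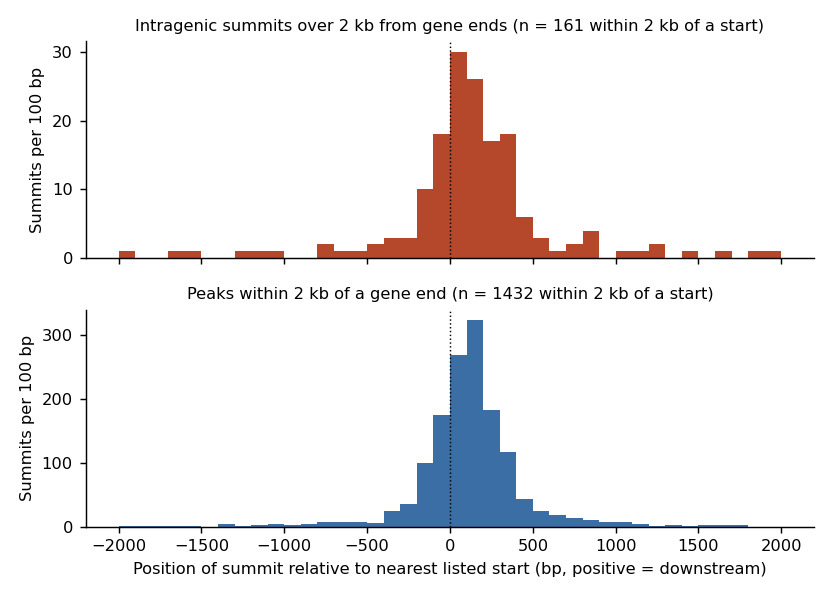
Number of summits per 100 bp (vertical axes) by position relative to the nearest listed transcript start in bp, positive values downstream (horizontal axis), for intragenic members (upper panel) and gene-end peaks (lower panel) within 2 kb of a start. In both panels the summits pile up just downstream of the start, with medians of 100 and 109.5 bp among those within 500 bp.

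Counted per length of sequence, the interior of genes was sparse in peaks except at its starts. The part of gene interiors within 500 bp of a listed start held 133 summits in 5.04 Mb, or 26.4 per Mb (22.1 to 31.3), and the remaining 914 Mb held 140, or 0.153 per Mb (0.129 to 0.181), chromosome 18 left out of both. The zones within 2 kb of gene ends held 12.1 peaks per Mb (11.6 to 12.7). Those zones are wider than 500 bp and take in both ends of each gene. Their density is therefore not comparable with that at internal starts. Seen from the starts, 137 of 3071 internal starts of protein-coding genes had a summit within 500 bp, which is 4.46%. Starts of 1 gene that lie close together can share a summit, as the 4 internal starts of Egr2 did. The 137 are therefore not 137 separate peaks, and the shares, medians and intervals by start make no allowance for this. Among starts within 2 kb of a gene end it was 1499 of 18191, or 8.24%. lncRNA starts inside protein-coding genes had one in 21 of 2503 cases, or 0.839%. An internal start is here one that lies inside a protein-coding gene and over 2 kb from every protein-coding gene end.

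Internal starts with a summit were rich in CpG. The CpG ratio, the observed CpG count over that predicted from the C and G content of the 300 bases from 250 before to 50 from the start onward, had a median of 0.812 at the 137 internal starts with a summit and 0.337 at the 2934 without. The G and C content was 66.7% against 53.0%, and the number of CpGs was 26 against 6 (medians). Gene-end starts with a summit had a median ratio of 0.860, and those without 0.556. At the 21 internal lncRNA starts with a summit the median ratio was 0.868, against 0.238 at the 2482 without.

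Among CpG-rich starts of like ratio, internal and gene-end starts had summits at rates whose intervals overlapped. For ratios from 0.6 to 0.8, 54 of 429 internal starts had one (12.6%, 9.60 to 16.1%) against 11.7% (10.7 to 12.8%) of gene-end starts. For ratios of 0.8 or more, it was 72 of 500 (14.4%, 11.4 to 17.8%) against 17.4% (16.4 to 18.4%). At lower ratios the internal rates were below those of gene-end starts. From 0.4 to 0.6 it was 10 of 475 (2.11%, 1.01 to 3.84%) against 3.91% (3.15 to 4.78%), and from 0.2 to 0.4 it was 1 of 875 (0.114%, 0.00289 to 0.635%) against 0.607% (0.354 to 0.970%). Below 0.2, 0 of 792 internal starts had a summit, with an upper exact bound of 0.465%, against 0.0256% at gene ends. The intervals of the groups overlapped in each class, but overlap is not a test, and a difference within a class was not tested. Close starts that share a summit were counted separately, so the intervals treat them as independent.

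**Figure D2:**
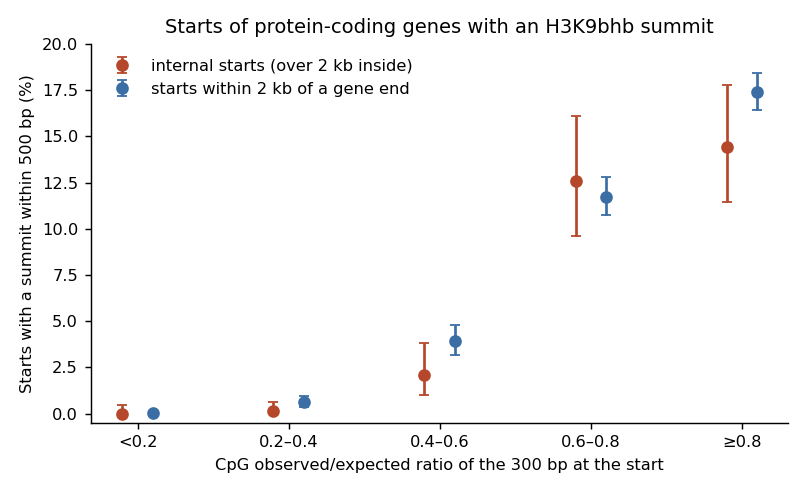
Share of protein-coding gene starts with an H3K9bhb summit within 500 bp (percent, vertical axis) by CpG observed/expected ratio of the 300 bases at the start (horizontal axis), for internal starts and for starts within 2 kb of a gene end, with exact 95% binomial intervals. Both series stay near 0 below a ratio of 0.4 and reach 14.4% (internal) and 17.4% (gene end) at ratios of 0.8 or more.

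The same order was seen between starts of 1 gene when the choice lay among internal starts. For 26 members at an internal start the host had another internal start with no summit, and in 22 of these the CpG ratio was higher at the start with the summit. Dido1 had 0.799 at the start with the summit and 0.173 at the other internal one shown, but its outer start, with no summit, had the highest ratio of the 3, 1.22. Txnrd1, encoding cytosolic thioredoxin reductase, went the other way, with 0.698 at the start with the summit and 0.963 at another internal start without one, and so did Ldb1, Sema4c and Srebf1 (these 3 named after their values were seen). Of 43 members at an internal start whose host also had a listed gene-end start, the ratio was higher at the internal start in 28, and the medians were 0.799 inside and 0.625 at the end. Runx1 (1.01 against 0.137), Dnmt1 (0.910 against 0.101) and Fgf13 (0.966 against 0.187) had a CpG-rich inner and a CpG-poor outer start. In Lhx2, Arid1a and Clcn4 the outer start had ratios of 0.885, 0.787 and 0.839 and yet no summit. In 4 of the 43 the gene-end start had a summit of its own as well: Sesn1 and, named after their values were seen, Impdh1, Rassf1 and Rubcn.

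A minority of members at starts had a CpG ratio below 0.6, though none fell to 0.337, the median of internal starts without a summit. For 13 of the 133 the ratio was under 0.6, and they included the 3 highest scores at any start: Stambpl1 (ratio 0.501), a deubiquitinase gene, Clcn4 (0.533), a chloride/proton exchanger gene, and Gramd1a (0.399). Tet3, which encodes a dioxygenase that oxidises 5-methylcytosine, was among them too (0.576, summit 120 bp downstream of an internal start). The peak score, the −log10 p or q value of the deposited list (the sources used do not say which), had a median of 6.63 in these 13 and 4.57 in the other 120.

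Short sequence motifs, 10 in all, were searched on both strands of the 300 bases at the starts. In percentage points, the largest contrasts belonged to the GC-rich ones. The windows of starts that lie close together overlap, so starts are not independent here either. The SP box (GGGCGG), the site of Sp and Klf zinc finger factors, was present at 103 of 137 internal starts with a summit (75.2%), at 34.0% of those without, at 80.8% of gene-end starts with a summit and at 35.7% of all 32851 starts. The ETS core (CCGGAA), bound by Ets family factors, was at 24.8% of internal starts with a summit, 10.5% without, and 14.9% of all starts. In the other direction, the TATA box (TATAAA) was at 4.38% against 11.7%, with 13.6% of all starts, and the Runx core (TGTGGT) at 7.30% against 17.3%, with 16.8% of all starts.

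These motif contrasts were nearly gone among starts of like CpG content. Of internal starts with a CpG ratio of 0.6 or more, 126 had a summit and 803 did not. In that class the SP box was at 75.4% against 73.0%, the ETS core at 24.6% against 22.5%, the TATA box at 4.76% against 4.86%, and the Runx core at 6.35% against 8.72%. The other 6 motifs were the FoxO site (TGTTTAC), the CCAAT box of NF-Y (CCAAT), the E-box (CACGTG), the AP-1 site (TGANTCA), the cyclic AMP response element (TGACGTCA) and part of the NRF1 site (GCATGCGC). In that class their shares with and without a summit differed by under 4 percentage points each, for instance 1.59% against 1.99% for FoxO and 8.73% against 8.59% for the E-box. Over all starts the FoxO site was at 3.65%, NF-Y at 37.4%, the E-box at 7.15%, AP-1 at 7.81%, the cyclic AMP element at 1.79% and NRF1 at 2.71%. The letters of the SP box, the ETS core, the E-box, the cyclic AMP element and the NRF1 site contain a CpG. A match is only a string of letters, and none of the motifs contains another.

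By median and quartiles of the score, members resembled the rest of the list, but not in the highest scores. Their median was 4.54 (quartiles 3.17 and 6.63, maximum 131), against 5.04 at gene ends (3.33 and 6.78) and 4.54 outside genes (3.46 and 6.78). Members at starts had a median of 5.11 and those away from starts 4.26. Scores over 10 were given to 27 members (9.54%, 6.38 to 13.6%) and to 120 gene-end peaks (6.64%, 5.53 to 7.88%). Above 20 there were 5 members (1.77%, 0.576 to 4.07%), 4 of them away from starts, and 1 of 1808 gene-end peaks (0.0553%, 0.00140 to 0.308%). The 4 stood far above the other members, and none was at a listed start. Very high scores were not limited to members: peaks outside genes reached 1051, the highest of the whole list.

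**Figure D3:**
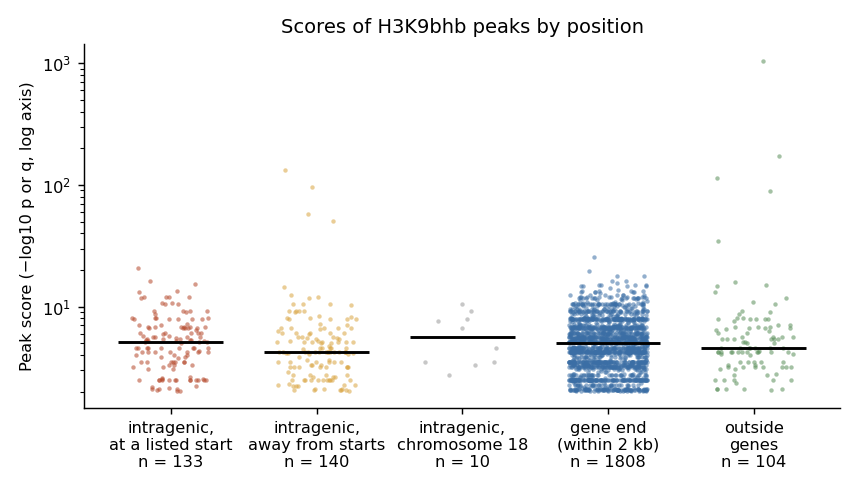
Peak score (−log10 p or q as deposited, log axis) of each peak by position, with black lines at the medians. Members at starts end at 20.9, whereas 4 members away from starts reach 50.5 to 131, the gene-end peaks end at 25.5, and the peaks outside genes reach 1051.

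The highest score belonged to Zc3h7a (chr16:11144117, score 131), a zinc finger RNA-binding protein gene, at 81.1% of its span from the 5′ end and 9585 bp from the nearest listed start, that of Txndc11. It was followed by the overlap of Filip1l and Cmss1 (chr16:57391550, 96.7), by Sfi1, a centriole protein gene (chr11:3193433, 58.0), and by Cdk8, the Mediator kinase gene (chr5:146261113, 50.5). Their nearest listed starts were 38273, 8920 and 29863 bp away. The start table lists no start of Sfi1, so whether its summit lies at one was not tested. No filter for regions prone to artefact signal was applied here, and whether these high scores fall in such regions was not tested. Stambpl1 (chr19:34192540, 20.9) was next and the first at a start, 311 bp downstream.

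Scores from 11.9 to 16.2 made up the rest of the top of the list. Clcn4 (chr7:7298622) scored 16.2 at 214 bp downstream of an internal start, and Gramd1a (chr7:31150926) scored 15.5. Tmem267 scored 14.5 away from any start. Cep70 scored 13.4 and Cops7a, a subunit of the COP9 signalosome, 13.2 at 74 bp downstream of a start. Grik5, a kainate receptor subunit, scored 12.4 at 526 bp upstream of an internal start, just beyond the 500 bp used here. Tied at 11.9 were Ncoa4, the cargo receptor for ferritin in autophagy (97 bp downstream), Sesn1, Dido1 and Srrm3, a splicing regulator, whose summit was 17068 bp from a start. Of these 15 summits, 8 were at a listed start.

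Members lay towards the 5′ side of their hosts. For the 229 whose host has a strand in the start table, the median position was 28.4% of the span from the 5′ end, and the span up to 25% held 107 (46.7%), that from 25 to 50% held 51, that from 50 to 75% held 43, and the rest 28. Members at starts were closer to the 5′ end (median 20.4%, 72 of 129 in the first 25%) than those away from starts (median 41.3%, 35 of 100 in the first 25%). The latter were spread more evenly, with 24, 21 and 20 in the next 3 stretches of that size. The rule trims 2 kb at each end, so short hosts can hold a summit only near their middle.

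**Figure D4:**
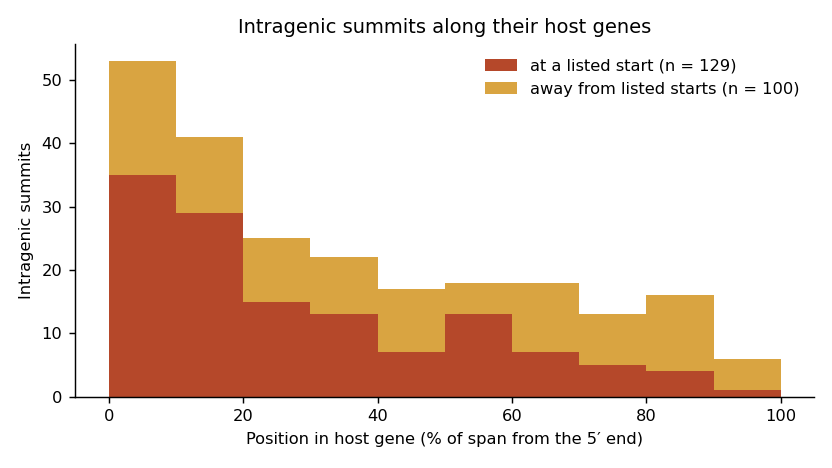
Number of intragenic summits (vertical axis) in bins of 10% of the host gene's span, counted from the 5′ end (horizontal axis), split into those at a listed start and those away from one. The counts fall from the first bin onward, mainly for summits at starts, whose median position is 20.4%.

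Distances to the nearest gene end ran from 2027 to 329435 bp with a median of 7232 bp. Within 5 kb of an end lay 102 members, within 10 kb 178 (62.9%), and within 100 kb 277 (97.9%). The 6 farthest were in Tenm3 (329435 bp, score 4.26), a teneurin of neuronal wiring, Zfhx3 (246534 bp, 7.89), Nfia (200139 bp, 2.23), Slc14a2 (183403 bp, 7.89), a urea transporter gene on chromosome 18, Spata13 (129760 bp, 4.26) and Syt16 (105277 bp, 6.63). The summits in Zfhx3 and Spata13 were at internal starts of those genes, 458 and 91 bp downstream. Those in Tenm3, Nfia and Syt16 were 105704, 90804 and 121637 bp from any listed start.

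At the 2 kb limit the choice of side was one of a few bases. Just inside lay Esyt2 (2027 bp from a gene end, score 3.06), Zic5 (2032 bp, 8.23) and Mtmr2 (2040 bp, 6.04), and just outside Oma1 (1995 bp, 8.34), Nr2f6 (1979 bp, 3.66) and Vwa5b2 (1978 bp, 4.93). Esyt2 and Mtmr2 had listed starts 88 and 121 bp away, and Oma1 had one 24 bp away.

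Host genes were long. Among the 17671 protein-coding genes spanning over 4 kb, the least span that can hold such a summit, 270 held one, which is 1.53%. The share rose with span, from 45 of 7634 genes up to 20 kb (0.589%), through 142 of 7609 from 20 to 100 kb (1.87%), to 83 of 2428 above 100 kb (3.42%). The median host span was 61176 bp, against 24296 bp for all genes over 4 kb. A peak within 2 kb of the host's own 5′ end was found for 15 of 229 members (6.55%, 3.71 to 10.6%), while 1505 of 14058 genes over 4 kb with a known strand (10.7%, 10.2 to 11.2%) had one. Zc3h7a, Cdk8, Sesn1, Tet3 and Pik3r1 were among the 15.

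Most hosts had 1 such summit, 12 had 2, and 2 had 3. Ptch1, the Hedgehog receptor, held 3 summits within 4632 bp (scores 4.26, 6.46 and 5.12), the middle one 225 bp downstream of an internal start with a CpG ratio of 1.09. Gse1, a subunit of a corepressor complex, held 3 over 50307 bp (6.04, 6.08 and 3.50), of which 2 were at starts, one its own and one an antisense lncRNA's. Tbc1d1, a Rab GTPase-activating protein that is phosphorylated by AMPK, had 2 summits 70157 bp apart, each on a listed internal start (2 and 62 bp downstream). Chd9, a chromatin remodeller, had 2 summits 672 bp apart (10.5 and 7.95) and 23274 bp or more from any start. Fam78a (863 bp apart), Phip (877 bp), Ebf3 (1652 bp), Grin2d (4106 bp), Tfap2a (8230 bp) and Zfp978 (87533 bp) each had 2. Over the 14 hosts the summits spread over a median of 2879 bp. Another called peak lay within 10 kb of 35 members (12.4%, 8.77 to 16.8%), against 5.64% (4.62 to 6.81%) of gene-end peaks.

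Members also met non-coding genes. Within 2 kb of an end of one lay 58 members (20.5%), and for 53 of these an lncRNA gene was that near. No such share of gene-end peaks or of gene interior is given here, so whether 20.5% is unusual was not tested. The 6 highest by score were in Clcn4 (269 bp from the microRNA gene Mir5620), Cops7a (1051 bp from the snRNA gene Gm23851), Nrg2 (near Gm41694), Txnrd1 (1554 bp from Gm38560), Larp4 (256 bp from 2310068J16Rik) and Fam78a (near Gm33126). Of the 13 members whose nearest start was an lncRNA's, 9 were on a host of the opposite strand and 0 on the same strand. In 4 the host's strand was not listed. The strand split of all lncRNA starts inside genes is not given here, so these counts describe the members only. The highest scores there were Dennd4a (Gm36459, 11.7), Pfdn4 (Gm16796, 8.0), Dixdc1 (Gm51674, 7.95) and Mmadhc (Gm13483, 6.78). Tlcd1 had its summit 6 bp from Mir7653 and 223 bp from its own start.

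Gene lists relevant to these cells are read against the 1.53% of genes over 4 kb that held a member, and against span, since list genes are mostly long. Of 427 list genes over 4 kb in 11 lists, 24 held an intragenic summit. More genes had a peak at a gene end than an intragenic one in 8 of the 11 lists. Gene-end peaks also outnumbered members in the whole peak list, 1808 to 283. Of genes over 4 kb with a known strand, 10.7% had a peak within 2 kb of the 5′ end. The share of all genes with a peak at either end is not given here, so gene-end counts below are descriptions only. For Ets1, Gata4, Chd2, Nsd1 and Nrxn2, named below, the start table lists no start of the host, so whether their summits lie at one was not tested.

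Among transcription factors of T cells, 4 of 46 held one (8.70%, 2.42 to 20.8%, median span 89.7 kb) and 10 had a gene-end peak. Runx1 scored 9.18 at its internal start. Ets1, which is highly expressed in resting T cells, scored 8.0, Nfatc2, a calcium-activated factor, 7.95, and Rora, a nuclear receptor, 6.63. The last 3 were 65668, 19068 and 74108 bp from a listed start. Developmental transcription factors had 7 of 51 (13.7%, 5.70 to 26.3%, median span 72.8 kb), the highest share of the lists. Zfhx3 (7.89) and the forebrain factor Lhx2 (3.51) were at their own internal starts. Ebf3 (5.63 and 3.17), the muscle stem cell factor Pax7 (4.54), Hoxa10 (2.62) and Nfia (2.23) were not, although Ebf3 and Hoxa10 had starts 586 and 802 bp from a summit. For the heart and endoderm factor Gata4 (4.26), which has no listed start, this was not tested. Both intervals lie above 1.53%, and so does that of the chromatin enzymes and remodellers given below. The share of 3.42% among all genes over 100 kb lies inside the interval of the T cell factors. It lies below those of the developmental factors and the chromatin enzymes. The lists were chosen with earlier results of these data known, and a difference from other genes was not tested.

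Chromatin enzymes and remodellers had 6 of 62 (9.68%, 3.63 to 19.9%, median span 77.9 kb), with 13 at gene ends. Tet3 (7.95), Dnmt1 (6.78) and the SWI/SNF subunit gene Arid1a (2.51) were at internal starts, so both an enzyme that copies DNA methylation and one that oxidises it were in this group. Kdm2b, a demethylase that binds CpG islands (4.54), Chd2 (3.17) and the H3K36 methyltransferase gene Nsd1 (2.29 and 2.23) were away from listed starts. Signalling from the T cell receptor and PI3K had 3 of 51 (5.88%, 1.23 to 16.2%), among them the PI3K regulatory subunit Pik3r1 (6.08, 1974 bp from an internal start) and the receptor signalling inhibitor Ubash3b (2.27, 607 bp from one). The score of Ubash3b was in the lowest part of the list.

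FoxO, AMPK, mTOR and PGC-1 genes had 1 of 26 (3.85%, 0.0973 to 19.6%), against 9 with a gene-end peak. The 1 was Ppargc1a, the gene of the coactivator PGC-1α that drives mitochondrial biogenesis, with a score of 4.54 at chr5:52113663. The summit was 2190 bp from the 5′ end of the annotated span of 661605 bp, just past the 2 kb limit. The listed start used for Ppargc1a lies far inside the gene, and the nearest listed start to the summit was that of an lncRNA gene, Gm40302, 16679 bp away. Neuronal adhesion and channel genes had 1 of 42 (2.38%, 0.0603 to 12.6%), Nrxn2 with 2 summits (3.34 and 2.90), although their median span was 1022 kb.

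Metabolic genes and cytokine receptor genes had none. For fatty acid, mitochondrial and glucose metabolism it was 0 of 52, which allows up to 5.77%, while 11 had a peak at a gene end. For cytokine receptors and JAK-STAT it was 0 of 29, which allows up to 10.3%, while 4 had one at a gene end. The CD8 T cell markers had 0 of 11 (up to 27.3%) and the markers of other spleen cells 0 of 13 (up to 23.1%). All of these limits include 1.53%, so a difference from other genes was not detectable.

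Per Mb of gene interior, autosomes held 0.308 members (0.273 to 0.346). The X chromosome held 4 in all, 0.0949 per Mb (0.0259 to 0.243), and it also had few gene-end peaks, 2.05 per Mb. The 4 were Mid1 (7.17), a ubiquitin ligase gene, Elf4 (4.03), an ETS factor that limits CD8 T cell proliferation, the filamin gene Flna (3.33) and Fgf13 (2.51). The last 3 were at internal starts of their hosts, 41 bp downstream, 307 bp downstream and 47 bp upstream. Over the 19 autosomes the density ran from 0.137 on chromosome 1 (0.0657 to 0.252) to 0.540 on chromosome 11 (0.356 to 0.786). These intervals do not overlap, but they make no allowance for picking the extremes of 19. Whether chromosomes 1 and 11 differ was not tested. Gene-end peaks per Mb of gene-end zone were alike on those chromosomes, 14.4 and 13.2.

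**Figure D5:**
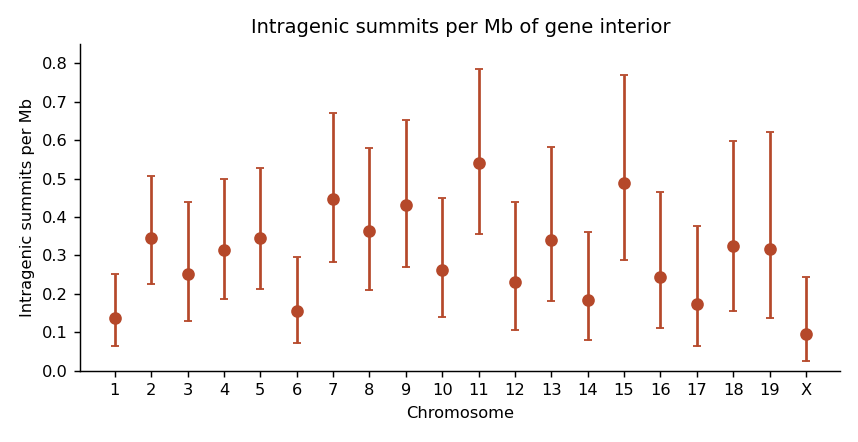
Intragenic summits per Mb of gene interior over 2 kb from gene ends (vertical axis) on each chromosome, with exact 95% Poisson intervals for counting error. Chromosome 11 is highest at 0.540, and X is lowest at 0.0949. The Y chromosome, with 0 members, is not drawn.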

How the data were processed

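Values are 1 peak list with a score per summit from the H3K9bhb ChIP library. The input library entered no comparison of its own. Per the submitters' processing notes, MACS2 2.1.2 and Bowtie2 2.3.5 were used with build mm10, beside Trimmomatic 0.39 and FastQC 0.11.8. Neither settings nor a peak threshold are stated in the sources used. The authors' deposited score is −log10 of a p- or q-value, used only to rank peaks within the list. Reads per peak were not used here, so no depth can be set beside a peak.

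From 2315 summits, 1 per peak was kept and placed against RefSeq gene spans (GRCm38.p6). Strand and transcript starts came from the RefSeq promoter table, which has no chromosome 18. Exon or intron position and sequence around summits away from starts were not analysed here. Shares have exact Clopper-Pearson intervals and densities exact Poisson intervals (95%); Python 3.11.15, pandas 2.3.3, scipy 1.17.1. The classing of summits by position and the interval arithmetic were tested on simulated data. Distances to starts and the CpG, motif and list counts were not.

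Members and gene lists were chosen with earlier results of these data known, and the 500 bp distance, the CpG classes and the motifs were chosen after seeing the data. Genes were named by rule: the 12 highest scores with ties, Ppargc1a, up to 10 hosts with several summits, up to 6 per list, 3 on each side of the 2 kb limit, the 6 farthest from ends, up to 6 near non-coding genes, up to 4 per sequence class, and those on X. The values of 1 gene and of 1 gene list that the rule names are not reported here. Alternatives covered the gene-end window, gene types, summit choice, score limits and start distance.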

Additional observations from a re-analysis of the deposited data

How the results depend on the processing

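Of 67 alternative values over 11 results, 49 stayed within the interval or 1.5 times of the value reported, and 18 did not. With a gene-end window of 1 kb the share of peaks counted as intragenic was 19.1%, the median position 16.9% of the span, and the share of genes 2.25%. With 5 kb the count was 181, the share of peaks 8.21%, the median position 38.2%, the share of genes 0.968%, and the median host span 71.5 kb. Using ends of all annotated genes gave 9.98% of peaks. Peaks at or above the median score left 133 members with a median score of 6.78, 0.730% of genes and 9 list genes, and the top 10% of peaks left 36 members, 15.3% of those peaks. The share at a start was 38.1% at 300 bp, 59.0% at 2000 bp, and 56.3% among hosts with a listed start, alternatives chosen after seeing the data. Other window sizes around summits were not run, since no genome was used here. The number of summits limits the precision, as the wide intervals of the gene lists and of the X chromosome show. No paired analysis was possible because there was 1 ChIP library.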
